A study of Mus musculus and Homo sapiens with 15 samples.

Results

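A set of 10 sarcomere and muscle genes were followed in grafted tumours of C57 mice given arsenic trioxide (ATO) or phosphate-buffered saline (PBS), and in thymus tumours of W/W mice. The genes are Myh8, Myh3, Actc1, Acta1, Lmod3, Mypn, Ttn, Neb, Ckm and Myog, which make 10 of the 56691 genes in the graft table and 10 of the 52340 in the W/W table. They were selected because of their measured levels in the ATO grafts against the PBS grafts, so their graft values are given as a description, without a test. The W/W contrasts took no part in that selection.

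Each group was taken from the sample labels. The grafts are labelled as tumours of a CDX model, an abbreviation the labels do not expand, in C57 mice with the genotype WT, and 2 libraries were made after PBS and 2 after ATO. All 9 W/W libraries came from thymus with T-lymphoma on day 150 after birth, in mice homozygous for the p53 substitution R282W. Of these, 3 were given water, 3 were given ATO and had progressing tumours, and 3 were given ATO and had regressing tumours, so that treatment and outcome cannot be told apart in a comparison with water. Dose, route, strain of the W/W mice and age of the graft hosts are not given in the sources used here. The labels do not say that same-group libraries came from separate animals, and p-values measure only the spread between these libraries.

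A sarcomere is the contractile unit of striated muscle, in which thick filaments of myosin pull on thin filaments of actin that are anchored in Z-discs. Skeletal muscle builds its first fibres with embryonic and perinatal myosin heavy chains and with cardiac actin, and replaces them by adult forms as fibres mature. The developmental forms are made again when adult muscle regenerates. In a thymus, a few epithelial and myoid cells are also known to make muscle proteins.

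Total counts ranged from 12922147 to 15637644 in the grafts and from 12800367 to 17550594 in the W/W libraries. Values are CPM, the share of a library's counts that a gene takes on a fixed scale, adjusted by TMM, a factor that evens out library composition. All 7 T cell markers (among them Lck, Thy1 and Cd3d) were detected in each of these 13 libraries, with summed levels of 3464 to 7034 CPM in grafts and 1236 to 4488 CPM in W/W tumours. Mitochondrially encoded genes took 0.521% and 1.02% of counts after PBS but 5.98% and 4.03% after ATO. A fit of the grafts with these genes left out is given below, and their part in the muscle results was not tested otherwise. In bulk tissue, fewer cells of a type and less RNA per cell cannot be told apart.

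Developmental and scaffold genes were higher in both ATO grafts than in either PBS graft, whereas Acta1 was so by a small margin and Ckm was not. The ATO grafts held reads of Myh8 and Actc1, which the PBS grafts lacked or nearly lacked, and more reads of Myh3 and Myog. Adult actin Acta1 was at nearly the same level in PBS replicate 1 as in ATO replicate 1, and creatine kinase Ckm was higher in the former. The scaffold genes Ttn, Neb, Lmod3 and Mypn were low in both PBS grafts.

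**Figure D1:**
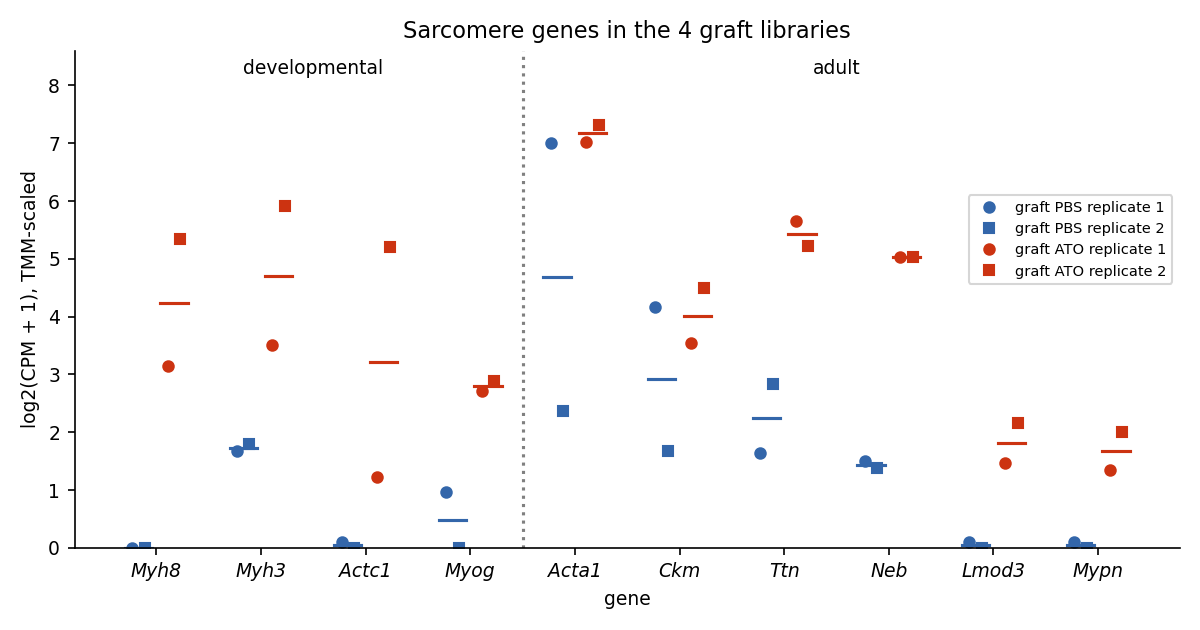
TMM-scaled expression, as log2(CPM + 1), of the 10 genes in the 4 graft libraries. Circles are replicate 1, squares are replicate 2 and horizontal lines are group means on the plotted scale. Developmental genes stand left of the dotted line, with Myh8 at 0 in both PBS libraries, and Acta1 and Ckm of PBS replicate 1 lie beside the ATO libraries.

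Myh3 encodes the embryonic and Myh8 the perinatal skeletal myosin heavy chain, and both lie in the fast myosin cluster of GRCm38 chromosome 11 (Myh3, ENSMUSG00000020908, 67078300 to 67102291; Myh8, ENSMUSG00000055775, 67277124 to 67308634; both on the plus strand). Actc1, cardiac muscle alpha actin, is the main sarcomeric actin of early skeletal muscle (ENSMUSG00000068614, chromosome 2, 114047282 to 114053548, minus strand). Myog, the transcription factor that drives myoblasts to differentiate, is on chromosome 1 (ENSMUSG00000026459, 134289989 to 134292548, plus strand). The promoters of these 4 genes are shown because they are the developmental ones among the 10; adult genes such as Neb and Lmod3 separated the grafts as well. Each window is from RefSeq on GRCm38.p6, runs 5′ to 3′ on the strand of its gene, and spans 250 bases before to 50 after the RefSeq start. The windows are chr11:67078050-67078349 (Myh3), chr11:67276874-67277173 (Myh8), chr2:114052826-114053125 (Actc1, minus strand) and chr1:134289754-134290053 (Myog). Capitals mark a TATAAA box, a CArG box or a MEF2 site, in the forms searched, and the Myog window held no match to these letters.
Myh3: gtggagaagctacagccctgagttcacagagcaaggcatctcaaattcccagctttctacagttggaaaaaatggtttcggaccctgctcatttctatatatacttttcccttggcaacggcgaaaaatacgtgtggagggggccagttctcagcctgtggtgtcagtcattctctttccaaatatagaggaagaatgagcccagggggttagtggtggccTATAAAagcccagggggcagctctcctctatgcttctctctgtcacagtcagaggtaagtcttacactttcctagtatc
Myh8: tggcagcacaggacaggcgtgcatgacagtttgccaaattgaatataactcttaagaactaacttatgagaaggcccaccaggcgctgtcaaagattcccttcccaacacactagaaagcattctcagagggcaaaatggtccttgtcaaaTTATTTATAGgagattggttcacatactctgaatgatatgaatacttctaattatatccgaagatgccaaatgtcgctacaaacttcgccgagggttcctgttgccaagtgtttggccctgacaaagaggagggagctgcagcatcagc
Actc1: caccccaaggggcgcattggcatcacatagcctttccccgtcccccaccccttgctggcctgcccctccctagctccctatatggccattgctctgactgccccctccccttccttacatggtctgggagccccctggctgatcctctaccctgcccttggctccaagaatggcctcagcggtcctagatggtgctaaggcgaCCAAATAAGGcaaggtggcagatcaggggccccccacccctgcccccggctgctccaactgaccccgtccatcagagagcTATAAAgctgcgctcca
Myog: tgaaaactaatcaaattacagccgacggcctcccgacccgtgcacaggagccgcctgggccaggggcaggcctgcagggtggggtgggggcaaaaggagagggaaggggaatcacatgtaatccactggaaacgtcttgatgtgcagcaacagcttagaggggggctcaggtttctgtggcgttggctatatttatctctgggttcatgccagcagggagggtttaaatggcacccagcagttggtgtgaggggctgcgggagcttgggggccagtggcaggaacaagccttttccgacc

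In the Myh3 window TATAAA stood at bases -29 to -24, counting the RefSeq start as 0. The Myh8 window held a MEF2 site, a motif of the muscle factor MEF2, at -99 to -90. The Actc1 window held a CArG box, the motif of serum response factor, at -47 to -38 and TATAAA at 33 to 38. Motifs were sought on both strands, except TATAAA, which was sought on the gene's own strand. RefSeq windows were found for 8 of the 10 genes. A CArG box occurred in 2 of these 8 (Actc1, Acta1) and in 1.63% of all 32851 windows of this length, and a MEF2 site in 2 (Ttn, Myh8) and in 3.19% of all. TATAAA occurred in 3 (Actc1, Acta1, Myh3) and in 8.32% of all. The E-box CANNTG, the motif bound by MyoD and myogenin, occurred in 8 of 8 windows and in 72.3% of all. Its form CAGCTG, which is counted within CANNTG, occurred in Ckm and Acta1 and in 16.3% of all. Apart from that nesting, no motifs overlapped one another in the 8 windows. The CArG box and MEF2 site were searched in their strict consensus forms, so a site that differs from them by a base would not be counted, and no match says only that these letters are not in the window. A match describes letters in a window and is no evidence that a factor binds there.

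Myh8 had 0 counts in both PBS grafts, and 106 and 605 counts in the ATO grafts, or 7.81 and 39.7 CPM. The groups did not overlap. Against a floor of 3 counts per PBS library, the ATO mean was at least 113-fold higher, and at least 37.3-fold without ATO replicate 2 or 189.5-fold without ATO replicate 1. Because 12.1% of the 50-base windows of the Myh8 transcripts also occur in other genes, most often Myh2, some of its reads could belong to adult myosins. Myh3, with 4.76% of such windows shared, measured 2.18 and 2.48 CPM after PBS and 10.4 and 59.0 CPM after ATO. Both ATO values were above both PBS values, and ATO replicate 2 was far above ATO replicate 1. The ratio of the means was 14.9, and it was 4.46 without ATO replicate 2 and 25.3 without ATO replicate 1.

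Actc1 measured 0.0727 CPM (1 count) and 0 CPM after PBS, and 1.33 and 36.0 CPM (18 and 548 counts) after ATO. ATO replicate 2 carried nearly all of the Actc1 reads. The ratio of summed levels was 563, with a 95% counting interval of 101 to 22292, which covers counting error only. The ratio of means was 513, and it was 36.5 without ATO replicate 2, 990 without ATO replicate 1 and 257 without PBS replicate 2. Without PBS replicate 1, which held the single PBS count, it was at least 92.8-fold. Myog measured 0.945 and 0 CPM after PBS and 5.52 and 6.43 CPM after ATO. Here the ATO libraries lay close together, and the ratio of means was 12.7 (6.33 without PBS replicate 2, whose count was 0, and at least 29.7 without PBS replicate 1). Of the other myogenic factors, Myod1 was at 0 in both PBS grafts and at 0.515 and 0.853 CPM in the ATO grafts, which is at least 3.27-fold higher. Myf5, an early factor of muscle precursors, had reads only in ATO replicate 2, at 0.263 CPM. Myf6, a factor of later differentiation, measured 0.727 and 0 CPM after PBS and 2.58 and 1.25 CPM after ATO, and Pax7, the marker of muscle stem cells, 0.363 and 0.603 CPM against 2.43 and 0.788 CPM. By the quasi-likelihood test of edgeR, adjusted by Benjamini-Hochberg, neither Myf6 (log2 fold change 2.40, SE 0.95, adjusted p = 0.109) nor Pax7 (1.70, SE 0.73, adjusted p = 0.132) passed the threshold of 0.05, and Myod1 and Myf5 were too low to be tested.

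Acta1, the adult skeletal alpha actin of the thin filament (ENSMUSG00000031972, GRCm38 chromosome 8, 123891769 to 123894751, minus strand), measured 126.7 and 4.15 CPM after PBS and 128.8 and 158.7 CPM after ATO. The PBS libraries differed from each other far more than PBS replicate 1 differed from the ATO libraries. The ratio of the means was 2.20, while the lowest ATO value was only 1.02 times the highest PBS value. Without PBS replicate 2 the ratio was 1.13, and without PBS replicate 1 it was 34.6. Ckm, the muscle creatine kinase that regenerates ATP beside the sarcomere (ENSMUSG00000030399, chromosome 7, 19404776 to 19422841, plus strand), measured 16.9 and 2.21 CPM after PBS and 10.6 and 21.7 CPM after ATO. It was the only one of the 10 genes whose graft groups overlapped. Its ratio of means was 1.69, and 0.953 without PBS replicate 2 or 7.30 without PBS replicate 1, and 1.11 without ATO replicate 2.

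Ttn encodes titin, the spring that spans a sarcomere from Z-disc to M-band (ENSMUSG00000051747, GRCm38 chromosome 2, 76703980 to 76982547, minus strand). It measured 2.11 and 6.17 CPM after PBS and 49.2 and 36.4 CPM after ATO, a ratio of means of 10.3. Unlike Acta1, Ttn was lower in PBS replicate 1 than in PBS replicate 2, and without the latter the ratio was 20.3. Neb encodes nebulin, which runs along the thin filament (ENSMUSG00000026950, chromosome 2, 52136647 to 52378474, minus strand), and measured 1.82 and 1.61 CPM after PBS and 31.7 and 31.6 CPM after ATO. Both pairs of Neb libraries lay close together, and the ratio of means was 18.5. The lowest ATO value of Neb was 17.4 times its highest PBS value, where for Acta1 that figure was 1.02.

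Lmod3, leiomodin 3, which nucleates and lengthens thin filaments (ENSMUSG00000044086, chromosome 6, 97238534 to 97252759, minus strand), had 1 and 0 counts after PBS and 24 and 53 counts after ATO, or 1.77 and 3.48 CPM. The ratio of summed levels was 76.6 (95% counting interval 13.4 to 3066). Its ratio of means was 72.2, and it was 36.1 without PBS replicate 2 and at least 13.05 without PBS replicate 1. Mypn, myopalladin, a Z-disc protein that binds nebulin and actinin (ENSMUSG00000020067, chromosome 10, 63115795 to 63203952, minus strand), had 1 and 0 counts after PBS and 21 and 46 counts after ATO, or 1.55 and 3.02 CPM. The corresponding ratio of sums was 66.7 (11.6 to 2673) and that of means 62.8, with 31.4 without PBS replicate 2 and at least 11.4 without PBS replicate 1. Neither pair of groups overlapped, and the PBS reads of both genes came from PBS replicate 1. In all, 9 of the 10 genes had both ATO grafts above both PBS grafts, as did 31.7% of the 15468 genes tested in the grafts; the 10 were selected on this contrast, and nothing is read from their count. All 10 passed the filter on low counts there.

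Gene models overlap several of these genes, and use of strand in counting is not given in the sources used here. On the opposite strand lie A930016O22Rik at Ckm, Gm13938 at Ttn, A530058N18Rik at Actc1, Gm13522 at Neb and, in the W/W table, Galnt2l at Acta1. Reads of such pairs cannot be told apart without strand. Mir6923 lies within Myh3 and Gm13521 within Neb on the same strand. None of the 50-base windows of Actc1, Lmod3, Mypn, Ttn, Neb, Ckm or Myog occurred in another gene, and 2.02% of those of Acta1 did, in Gm47692.

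Levels were then compared between genes per kilobase of exonic size. The 4 developmental genes (Myh8, Myh3, Actc1, Myog) summed to 1.04 and 0.409 CPM per kb after PBS and to 6.89 and 39.7 after ATO. The 6 adult genes summed to 88.5 and 3.58 CPM per kb after PBS and to 90.2 and 114.4 after ATO. PBS replicate 1 was close to the ATO grafts in the summed adult level and below them in the developmental level. Acta1 made up most of the adult sum, at 82.5 and 2.70 CPM per kb after PBS and 83.8 and 103.3 after ATO. The adult level and the ratio that follows thus mostly describe Acta1. Ttn, Neb, Lmod3 and Mypn were lower in PBS replicate 1 than in both ATO grafts (Neb 0.0681 against 1.19 and 1.19 CPM per kb). The developmental level divided by the adult level was 0.0117 and 0.114 after PBS and 0.0764 and 0.347 after ATO, with means of 0.0631 ± 0.0726 (SD, n = 2) and 0.212 ± 0.191 (SD, n = 2). These ranges overlapped, with PBS replicate 2 above ATO replicate 1. Between the PBS grafts the adult level differed far more than the developmental level.

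**Figure D2:**
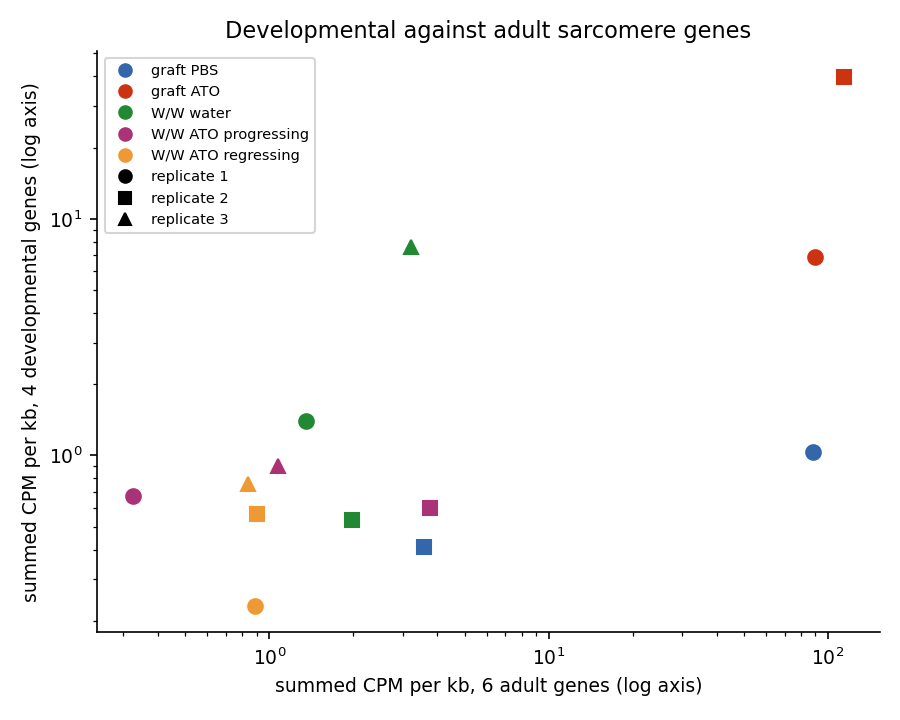
Summed level of the 4 developmental genes (vertical) against that of the 6 adult genes (horizontal) in CPM per kb of exonic size, both on log axes, for 13 libraries coloured by group, with the marker shape giving the replicate. Graft PBS replicate 1 lies below the ATO grafts at a like summed adult level of 88.5, most of it Acta1. The W/W tumours lie to the left of these grafts, and graft PBS replicate 2, at 3.58, lies within their range of adult levels. Graft and W/W libraries come from tables scaled separately.

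Among the myosin heavy chains, adult forms made up most of the reads in 2 grafts and about an equal part in the other two. Myh1, Myh2 and Myh4 encode the adult fast chains IIx, IIa and IIb. Myh1 measured 13.3 and 1.21 CPM after PBS and 45.0 and 54.6 CPM after ATO, Myh2 4.29 and 0.201 against 10.7 and 13.5 CPM, and Myh4 12.2 and 1.01 against 34.4 and 10.8 CPM. Myh1 rose (log2 fold change 2.79, SE 0.68, adjusted p = 0.0233, edgeR), whereas Myh2 (2.44, SE 0.80, adjusted p = 0.0614) and Myh4 (1.78, SE 0.80, adjusted p = 0.151) did not pass. Myh3 and Myh8 together took 7.08% of the length-scaled level of these 5 chains in PBS replicate 1 and 51.5% in PBS replicate 2, where the 5 chains had only 73 counts. They took 14.3% in ATO replicate 1 and 51.6% in ATO replicate 2, on 1470 and 2706 counts. The ATO grafts differed in which chains led, with Myh4 higher in replicate 1 and Myh3 and Myh8 higher in replicate 2. Myh3 was 2.59 and 2.89 times Myh8 per kb in the ATO grafts. Shared 50-base windows made up 25.4% of Myh1, 22.9% of Myh2 and 18.9% of Myh4, so the split among adult chains is uncertain. Myh7, the slow chain, had 0 counts in the PBS grafts and 9 in the ATO grafts together, at 0.442 and 0.197 CPM. The ATO mean was at least 1.52-fold higher against the floor, but ATO replicate 2 itself lay below the floor of 0.210 CPM.

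**Figure D3:**
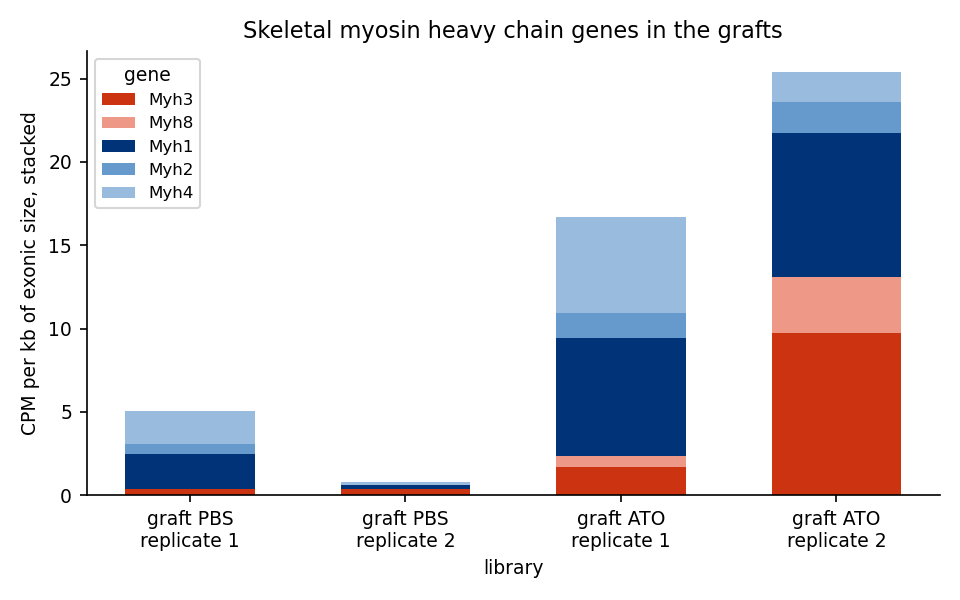
Stacked levels of 5 skeletal myosin heavy chain genes, in CPM per kb of exonic size, in the 4 graft libraries (bars start at 0). Developmental Myh3 and Myh8 (red) are 14.3% of the bar in ATO replicate 1 and 51.6% in ATO replicate 2, and adult Myh1, Myh2 and Myh4 (blue) are the rest.

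Muscle genes beyond the 10 were read from 7 lists written from general knowledge. The lists were chosen with earlier results of these data known, so they are not independent of the graft contrast. These lists hold 77 other genes, of which 64 could be tested. By edgeR's quasi-likelihood test 32 of the 64 rose in the ATO grafts and none fell. Over all 15468 tested genes, 13.9% were called in either direction and 7.37% were called higher. DESeq2 called 22 of the 64 higher, and 1230 of all tested genes. Some of the 64, such as Ckmt2 with 0 counts after PBS and 28 after ATO, passed the filter on low counts only through the ATO grafts. Such genes could only be called higher. The median log2 fold change was 2.13 over these 64 genes and 0.04 over all tested genes. Without PBS replicate 2, the graft with the fewest muscle reads, 69 of the 77 could be tested. Their median log2 fold change was then 1.58, against 0.09 over all tested genes. Fewer of them were called higher than in the full fit. The PBS group then held a single library, so no more is read from these calls. With the mitochondrially encoded genes left out of the fit, 32 of the 64 rose by edgeR, as did 1130 of all 15452 tested genes. Without TMM scaling the median of all genes moved to 0.23, and 1800 of the 2320 calls over all genes were higher, against 1140 of 2157 with it; 35 of the 64 muscle genes then rose.

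**Figure D4:**
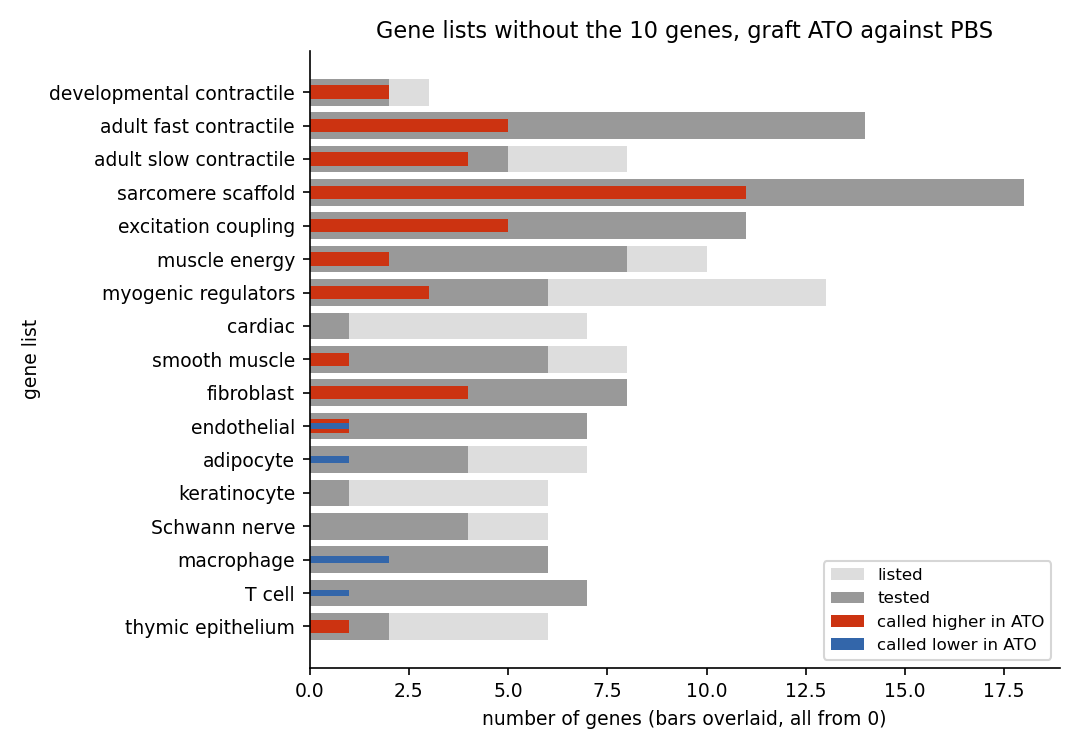
Number of genes listed (light), tested (dark) and called higher (red) or lower (blue) in ATO against PBS grafts for 17 gene lists, with the bars overlaid from 0. The selected 10 genes are left out. The sarcomere scaffold list has 11 of 18 tested genes called higher, and no muscle list has a gene called lower.

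The counts of genes that follow leave out the selected 10. Of 3 developmental contractile genes, 2 were tested and 2 rose. Tnnt2, the troponin T of heart and early skeletal muscle, measured 0.291 and 0.134 CPM after PBS and 5.45 and 9.52 CPM after ATO (log2 fold change 5.10, SE 0.64, adjusted p = 0.00376, edgeR). With 6 counts in the PBS grafts together, Tnnt2 passed the filter on low counts only through the ATO grafts and could only be called higher. Myl4, the embryonic and atrial light chain, measured 6.54 and 6.77 against 13.2 and 17.5 CPM (1.20, SE 0.35, adjusted p = 0.0427).

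Adult fast fibre genes rose in 5 of 14 cases, and 4 of 5 tested slow fibre genes rose. Mylpf, the fast regulatory light chain, rose by 1.07 on the log2 scale (SE 0.27, adjusted p = 0.0274, edgeR). Tnnt3, fast troponin T, measured 28.6 and 2.14 CPM after PBS and 43.1 and 41.7 CPM after ATO and did not pass (1.47, SE 0.71, adjusted p = 0.181). Among slow genes, Tnni1, slow troponin I, which early fibres also make, measured 0.799 and 0.402 against 5.60 and 16.9 CPM (4.22, SE 0.65, adjusted p = 0.00557). Mybpc1, slow myosin binding protein C, also rose (2.45, SE 0.66, adjusted p = 0.0331). Tnnt1, slow troponin T, was the most abundant of the slow list at 62.1 and 78.1 CPM after PBS and 58.2 and 46.9 CPM after ATO, and did not pass (-0.42, SE 0.22, adjusted p = 0.225).

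Sarcomere scaffold genes, the list that Ttn, Neb, Lmod3 and Mypn belong to, rose in 11 of 18 cases. The most abundant of this list, Smyd1, a chaperone-like methyltransferase of muscle, measured 49.5 and 53.5 CPM after PBS and 58.0 and 55.9 CPM after ATO (0.15, SE 0.21, adjusted p = 0.668, edgeR). Actn2, the Z-disc actinin, measured 13.5 and 25.7 against 20.5 and 27.0 CPM (0.28, SE 0.34, adjusted p = 0.613). Both genes were thus well above 0 in PBS replicate 2, where Actc1, Lmod3, Mypn and Myog had no reads.

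Excitation-coupling genes rose in 5 of 11 cases. Ryr1, the calcium release channel of skeletal muscle, measured 5.74 and 3.89 CPM after PBS and 21.1 and 19.6 CPM after ATO (log2 fold change 2.08, SE 0.36, adjusted p = 0.00863, edgeR). Stac3, its coupling partner at the triad, rose by 2.09 (SE 0.50, adjusted p = 0.0228), and Cacnb1, a calcium channel beta subunit, did not pass (0.16, SE 0.47, adjusted p = 0.848).

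Muscle energy genes rose in 2 of 8 tested cases, of 10 listed. Eno3, the muscle enolase, measured 20.4 and 19.6 CPM after PBS and 35.8 and 32.5 CPM after ATO (0.77, SE 0.25, adjusted p = 0.0588, edgeR), and Pgam2, the muscle phosphoglycerate mutase, 12.6 and 13.3 against 9.72 and 11.2 CPM (-0.31, SE 0.33, adjusted p = 0.557). Neither passed the threshold.

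Myogenic regulators rose in 3 of 6 tested cases, of 13 listed. These 6 had 1 to 14 counts each in the PBS grafts together and passed the filter on low counts only through the ATO grafts. They could thus only be called higher, and nothing is read from their count. Chrna1, a subunit of the muscle acetylcholine receptor, measured 0.291 and 0 CPM after PBS and 3.17 and 7.75 CPM after ATO (log2 fold change 5.196, SE 0.89, adjusted p = 0.00863, edgeR). Mymk, myomaker, needed for myoblast fusion, measured 0.291 and 0 against 0.663 and 5.38 CPM (4.35, SE 1.15, adjusted p = 0.0309). ATO replicate 2 was the highest library for both, as for Myh3, Myh8 and Actc1.

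Markers of other cell types were read beside these genes. Heart markers Myh6 and Myl7 had no reads in any graft, and the summed cardiac list measured 2.54 to 3.08 CPM after PBS and 3.35 to 5.74 CPM after ATO, with 0 of 1 tested genes called (Tnni3, adjusted p = 0.740, edgeR, also not under an unadjusted p of 0.05). Smooth muscle genes summed to 56.96 to 76.5 CPM after PBS and 66.0 to 66.7 CPM after ATO, with 1 of 6 called higher. Its leading genes Smtn (0.02, SE 0.26, adjusted p = 0.960) and Acta2 (-0.64, SE 0.28, adjusted p = 0.143) did not pass.

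Fibroblast genes summed to 372.5 and 641.4 CPM after PBS and to 722.0 and 1755 CPM after ATO, and 4 of 8 rose. Col1a1, a fibrillar collagen chain, measured 116.3 and 43.0 against 184 and 523.7 CPM (log2 fold change 2.15, SE 0.48, adjusted p = 0.0181, edgeR). Col1a2 (1.54, SE 0.41, adjusted p = 0.0295) and Col3a1 (1.57, SE 0.45, adjusted p = 0.0415) also rose, and ATO replicate 2 was highest for these 3 as for the developmental genes. The thymic epithelium list summed to 17.4 and 18.7 CPM after PBS and to 39.6 and 30.1 CPM after ATO. Of its 2 tested genes 1 rose, the chemokine gene Ccl25, at 14.0 and 16.0 against 39.0 and 25.4 CPM (1.10, SE 0.29, adjusted p = 0.0323, edgeR). Ccl25 made up most of these sums. The other, Krt8, did not pass (-0.33, SE 1.02, adjusted p = 0.855, edgeR), and Foxn1, Psmb11, Prss16 and Aire had at most 7 counts in a group. T cell genes summed to 5784 and 7034 CPM after PBS and to 4515 and 3464 CPM after ATO, with 1 of 7 called lower. Macrophage genes had 2 of 6 called lower and adipocyte genes 1 of 4. Their part in the muscle results was not tested.

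In W/W tumours 1 of the 10 genes, Lmod3, passed the test in a contrast. Ttn reached 34.0 CPM in water replicate 1 and Myh3 32.3 CPM in water replicate 3, and the other 8 stayed below 10 CPM in all 9 libraries. Of the 10, 6 passed the filter on low counts (Myh3, Acta1, Lmod3, Ttn, Neb, Ckm), and Myh8, Actc1, Mypn and Myog were too low to be tested. In regressing against water 0 of the 6 were called by edgeR (2 had an unadjusted p under 0.05, and DESeq2 called 2), where 7.70% of 18119 genes were called. In progressing against water 0 of the 6 were called (1 had an unadjusted p under 0.05, and DESeq2 called 0), where 11.9% of all genes were. For both ATO outcomes against water 0 were called (2 had an unadjusted p under 0.05, and DESeq2 called 1), where 10.9% of all genes were. In regressing against progressing 1 was called, Lmod3, where 12.6% of all genes were. These shares of all genes are by edgeR. DESeq2 called 3354 genes in regressing against water, 3733 in progressing against water, 3470 for both outcomes and 4121 in regressing against progressing. These contrasts share groups, so their results are not independent of each other.

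**Figure D5:**
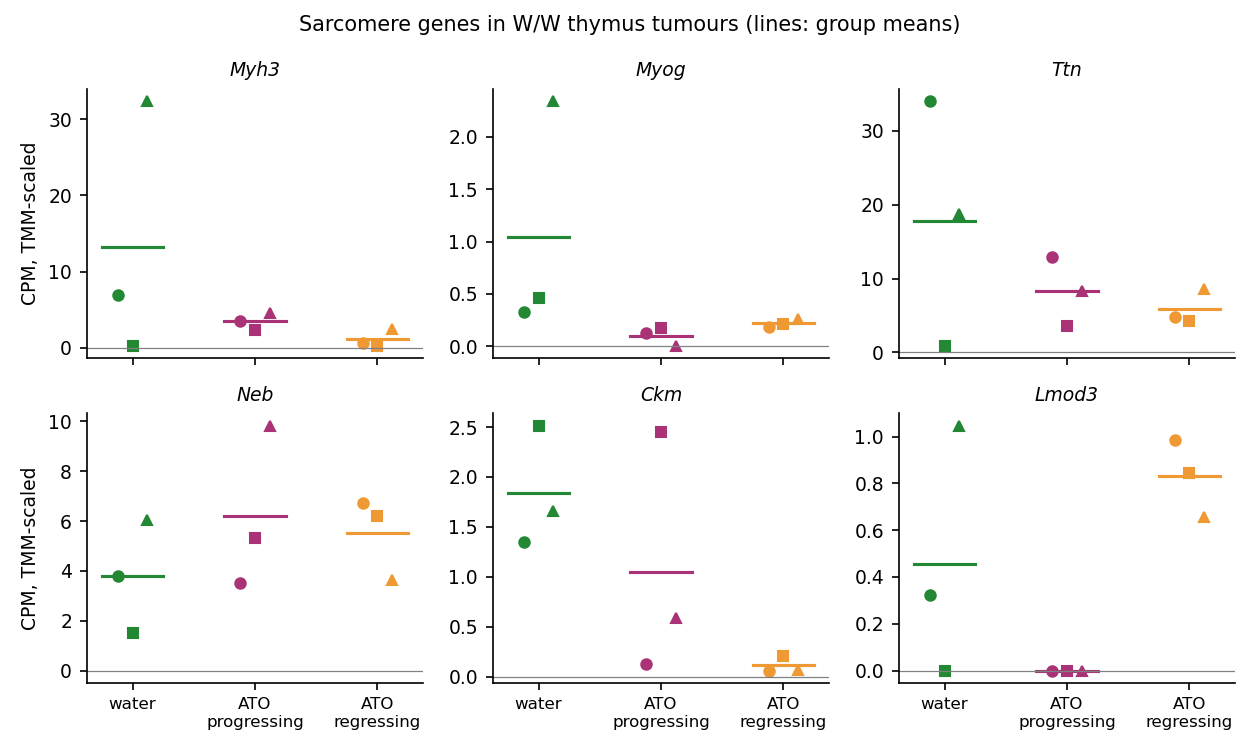
TMM-scaled CPM of 6 of the genes in the 9 W/W thymus tumour libraries by group. Circles, squares and triangles are replicates 1, 2 and 3, and lines are group means. Myh3 and Myog are highest in water replicate 3, and Lmod3 is at 0 in the 3 progressing tumours.

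Myh3 was the developmental gene with reads in each W/W library. It measured 6.88, 0.229 and 32.3 CPM after water, 3.57, 2.28 and 4.62 CPM in progressing tumours and 0.617, 0.211 and 2.50 CPM in regressing tumours. The water libraries held the highest value and nearly the lowest, and overlapped both other groups. In regressing against water Myh3 did not pass (log2 fold change -3.56, SE 1.35, adjusted p = 0.117, edgeR), and the value was -1.68 without water replicate 3. The adjusted p was 0.0165 by DESeq2 and 0.00745 without the filter, so the call depends on the method; over all alternatives it ran from 0.00745 to 0.405.

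Myh8 accompanied Myh3 in the ATO grafts but hardly in W/W tumours. Myh8 had at most 0.678 CPM, in water replicate 3, and 0 to 0.0843 CPM in the 6 ATO-treated tumours. In water replicate 3, the W/W library with 11 Myh8 counts, Myh3 was 92.8 times Myh8 per kb, against 2.59 and 2.89 in the ATO grafts, and no test was made between the tables. The other 8 W/W libraries had 0 or 1 count of Myh8, too few for a ratio. Actc1 ranged from 0 to 1.05 CPM and Mypn from 0 to 0.370 CPM over the 9 libraries. Myog measured 0.322, 0.457 and 2.34 CPM after water, 0.123, 0.169 and 0 CPM in progressing tumours and 0.185, 0.211 and 0.263 CPM in regressing tumours. All 3 water values of Myog were above all 6 ATO values, on at most 4 counts per ATO library.

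Lmod3 had 5, 0 and 17 counts after water, 0 in each of the 3 progressing tumours and 16, 12 and 10 in the regressing tumours, or 0.988, 0.845 and 0.658 CPM in the last. Regressing and progressing tumours did not overlap, and water overlapped both. Lmod3 was at least 3.79-fold higher in regressing than in progressing tumours against a floor of 3 counts per library (fitted log2 fold change 6.62, SE 1.80, adjusted p = 0.0461, edgeR). The call was lost with any 1 of the 6 compared libraries left out (adjusted p from 0.0853 to 0.132), and with the replicate number as a block (0.0709). Thymic epithelium markers differed between the same groups, at 29.4 to 49.4 CPM summed in progressing and 1278 to 1537 CPM in regressing tumours, and their part in the Lmod3 result was not tested.

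Ckm measured 1.35, 2.51 and 1.66 CPM after water, 0.123, 2.45 and 0.587 CPM in progressing tumours and 0.0617, 0.211 and 0.0658 CPM in regressing tumours. The regressing tumours, with 5 counts in all, were below every water library and overlapped the progressing ones. In regressing against water Ckm came just short of the threshold (log2 fold change -3.95, SE 1.11, adjusted p = 0.0549, edgeR). It passed by DESeq2 (0.0121), without the filter (0.0312), with a replicate block (0.0461) and with only the compared groups fitted (0.0260), and the adjusted p ran up to 0.216 with a library left out. Acta1 measured 0.450, 1.60 and 2.65 CPM after water, 0.0615, 4.13 and 0.660 CPM in progressing and 0.185, 0.282 and 0.461 CPM in regressing tumours, and passed no contrast.

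Ttn measured 34.0, 0.838 and 18.7 CPM after water, 12.98, 3.63 and 8.36 CPM in progressing and 4.75, 4.23 and 8.62 CPM in regressing tumours. Neb measured 3.80, 1.52 and 6.04 CPM after water, 3.51, 5.31 and 9.83 CPM in progressing and 6.73, 6.20 and 3.62 CPM in regressing tumours. Groups overlapped for both genes, and neither passed a contrast (for both ATO outcomes against water, Ttn -1.35, SE 0.78, adjusted p = 0.278, and Neb 0.63, SE 0.58, adjusted p = 0.504, edgeR). Unlike Myh8, Actc1 and Mypn, Ttn and Neb thus had reads in each of the 9 W/W libraries.

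The developmental level divided by the adult level, per kb, was 1.03, 0.268 and 2.37 after water, 2.09, 0.159 and 0.839 in progressing and 0.259, 0.627 and 0.901 in regressing tumours. Group means were 1.22 ± 1.06, 1.03 ± 0.977 and 0.596 ± 0.322 (SD, n = 3 each), which differ by less than the spread within the water group. The summed adult level was 0.324 to 3.77 CPM per kb over the 9 libraries. Of the adult myosin chains, Myh1 measured 0 to 5.91 CPM, Myh2 0 to 0.220 CPM and Myh4 0 to 1.66 CPM. Water replicate 3 was the highest for Myh1 and Myh4, and there Myh3 and Myh8 took 81.6% of the length-scaled level of the 5 chains, on 660 counts.

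Of the 77 other muscle genes, 37 could be tested in W/W tumours, and all 77 without the filter. The shares of all genes called that follow are by edgeR with the filter. In regressing against water, where 7.70% of all genes were called, 1 fell and none rose by edgeR, against 3 and 5 by DESeq2 and 3 and 2 without the filter. It was Tnni1, slow troponin I, at 3.92, 0.229 and 298.7 CPM after water and at most 1.17 CPM in the 6 ATO-treated tumours (-7.85, SE 2.11, adjusted p = 0.0480, edgeR). DESeq2 gave Tnni1 no adjusted p. None fell without water replicate 3, without any 1 regressing library or with the replicate block, and 2 fell without water replicate 1. In progressing against water, where 11.9% of all genes were called, 2 fell and none rose, against 4 and 2 by DESeq2 and 4 and 2 without the filter. In regressing against progressing, where 12.6% were called, 2 rose and 1 fell, against 5 and 2 by DESeq2 and 5 and 3 without the filter. For both outcomes against water, where 10.9% were called, 4 fell and none rose, against 4 and 2 by DESeq2 and 5 and 1 without the filter. With 1 library left out, the number that fell ran from 1 to 3 in progressing against water (1 when replicate 3 of the water group, or replicate 1 or 3 of the progressing group, was dropped) and from 0 to 4 for both outcomes against water (0 without water replicate 3 or regressing replicate 2, 1 without water replicate 2, regressing replicate 1 or regressing replicate 3, and 2 without progressing replicate 3). In regressing against progressing 1 to 3 rose and 0 to 3 fell, and none fell unless progressing replicate 1 was the library left out. Jph1, junctophilin 1, which ties the surface membrane to the calcium store, measured 0.123, 0.253 and 0.0733 CPM in progressing and 6.48, 6.27 and 5.33 CPM in regressing tumours (5.28, SE 0.80, adjusted p = 0.00924). Cacnb1 was also higher in regressing tumours (2.58, SE 0.57, adjusted p = 0.0221), and Tnnt1 was lower (-3.18, SE 0.83, adjusted p = 0.0357). Jph1 thus shared the low progressing and higher regressing levels of Lmod3.

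The mean log2(CPM + 1) of the 10 genes over the 9 W/W libraries was 2.05 in water replicate 3, 1.33 in water replicate 1, 0.67 in water replicate 2 and 0.79 to 1.14 in the ATO-treated tumours. Among 16491 other genes that averaged 1 CPM or more, the 10 most like this profile by Pearson's r over 9 libraries were P2rx2 (0.97), Aoc1 (0.96), 2610528A11Rik (0.95), Lingo1 (0.95), Gm10791 (0.95), Sec16b (0.95), Rmdn2 (0.94), Nts (0.94), Asprv1 (0.93) and Dnaic2 (0.93). Aoc1, for example, measured 24.7 CPM in water replicate 3 and 4.18 CPM in water replicate 1, and 0.381 to 1.84 CPM elsewhere. Of 31 ranked muscle list genes, 1 was among the 100 most alike. The points share water replicate 3 as their highest library. In that library the epithelial keratin gene Krt5 was at 435.8 CPM and Aire, the regulator of medullary thymic epithelium, at 138.7 CPM, each the highest of the 9 libraries. The keratinocyte list that holds Krt5 was also highest there, at 563 CPM summed. The thymic epithelium list that holds Aire was not, at 352 CPM summed there against 1278 to 1537 CPM in the regressing tumours. The part of these genes was not tested. Of the 10 genes themselves, Myh3 (0.94) and Myh8 (0.90) followed the profile most closely and Neb (0.30) and Lmod3 (0.32) least.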

How the data were processed

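RNA sequencing libraries of 13 mouse samples were used; 2 libraries of the U937 cell line were not analysed here. Per the labels' protocols, total RNA came from a TRIzol extraction and a SMARTer kit gave the libraries; the same text holds a cell culture passage that does not describe these tissues. FastQC 0.10.1, cutadapt 1.9.1, HISAT2 2.0.1 and the build GRCm38 are named in the submitters' processing notes. Which program counted the reads, whether it used strand and which annotation it read are not given in the sources used here. Gene coordinates in the graft table are not those of GRCm38, so positions were printed from the W/W table.

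The authors deposited a raw count of reads for each gene, without normalization, with 1 table for the W/W tumours and another for the grafts. The authors' tables also hold FPKM values, which were used only to check library totals, and the exonic size of each gene, which per the file headers accompanies the counts and served for levels per kb. The totals behind the FPKM values exceeded the summed counts by 0.106% to 2.33% in the W/W libraries.

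The tests used edgeR 4.0.16 under R 4.3.3 on the raw counts (filterByExpr, TMM, quasi-likelihood test, Benjamini-Hochberg adjustment over all tested genes, threshold 0.05), with the 9 W/W libraries fitted as 3 groups and the 4 grafts alone; the code was tested on simulated data. Standard errors were taken from the F statistic and the fold change. DESeq2 1.42.0, other scalings, no filter, a replicate block and leaving out each library were alternatives. CPM uses the TMM-scaled library size. Floors (3 counts) and 95% intervals cover counting error only, since reads are not independent molecules. Same-numbered libraries were not shown to be paired.

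The members and lists were chosen with earlier results of these data known. Genes named are the 10, the adult myosin heavy chains, the myogenic factors with Pax7, the 3 most abundant genes of a list in the grafts, and the 10 most like the W/W profile; Tnnt2, Jph1, Krt5, Aire and those of the closing section were chosen after their values were seen, as were the called W/W genes.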

Additional observations from a re-analysis of the deposited data

Results flagged for a closer look

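Lmod3 differed between the outcomes of ATO-treated W/W tumours by a test of the difference itself, with a log2 fold change of 6.62 for regressing against progressing tumours (SE 1.80, adjusted p = 0.0461, edgeR). All 3 progressing libraries had 0 counts and the 3 regressing libraries had 10 to 16, so the fitted value is set partly by the prior count, and the bound of at least 3.79-fold is the safer size. Leaving out any 1 of the 6 libraries ended the call.

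Myog was higher in both ATO grafts than in either PBS graft, and lower in all 6 ATO-treated W/W tumours than in the 3 water tumours, where the log2 ratio of mean CPM + 1 of the ATO tumours to water was -0.82. The difference between the systems was not tested, since the tables were normalized separately and Myog was too low in the W/W table to be fitted.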

How the results depend on the processing

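Counts are of the 6 tested genes that were called. In regressing against water the count was 0, and it was 2 by DESeq2 (Ckm, Myh3), 2 without the filter, 1 with the replicate block and 1 with only the compared groups, and 0 in every fit with a library left out. In progressing against water it was 0, and 1 without the filter; with a library left out it was 0 to 1, the 1 being Lmod3 without water replicate 2. In regressing against progressing it was 1, and 2 by DESeq2 and 0 with the replicate block. With a library left out it was 0 to 1, the 1 being Ckm without progressing replicate 1. With only the compared groups it was 0, but there Lmod3, Acta1 and Ckm did not pass the filter and were not tested. For both outcomes it was 0, and 1 by DESeq2, 1 without the filter, and 0 to 1 with a library left out (Myh3 without water replicate 2, Ckm without progressing replicate 2). The causes of these changes were not tested, beyond the smaller or larger number of samples and genes in each fit.

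Of 270 alternative log2 fold changes of the 6 genes, 244 kept direction and side of the threshold, 14 passed newly, 7 no longer passed and 5 reversed. Acta1 in progressing against water was 0.03, and -0.58 with the block, -0.41 without water replicate 1 and -2.04 without progressing replicate 2, with a range of -2.04 to 0.64 over the libraries left out. Neb in regressing against progressing was -0.17, and 0.32 without progressing replicate 3 and 0.13 without regressing replicate 3, with a range of -0.45 to 0.32. Neither passed in any of these fits.

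Same-numbered W/W libraries correlated at -0.124 to 0.136, so the numbers do not pair them. Same-numbered grafts correlated at -0.13, and pairing them crosswise, an alternative chosen after seeing the data, gave 3298 calls over all genes, against 1350 with the replicate block and 2157 without. In the grafts 9 genes had no overlap, and 9 to 10 with a library left out. Other muscle genes called higher numbered 32, and 50 without the filter, and 16 to 44 with a library left out. Over all genes, calls in the grafts numbered 3274 without the filter and 685 without PBS replicate 1. In regressing against water they were 1396, and 3354 by DESeq2, 2689 without the filter and as few as 60 with a library left out. In progressing against water they were 2157, and 3733, 3594 and 907, and also 1405 with the block and 882 with only the compared groups. In regressing against progressing they were 2289, and 4121, 3621 and 177. For both outcomes they were 1968, and 3470, 3273 and 656, and 1230 with the block. With 2 grafts a group, a single library sets much of each mean. Without the filter, the 50 muscle genes called higher in the grafts were of 76 tested. Of all 27713 genes tested there, 1707 were called higher. Among fits with a graft left out, muscle gene calls were fewest without PBS replicate 2 and most without PBS replicate 1. These fits leave a single library in a group, so nothing is read from their numbers of calls.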

Other observations

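Some genes of the lists that were outside the naming rule also rose in the ATO grafts, by edgeR's quasi-likelihood test. Pygm, muscle glycogen phosphorylase, measured 3.34 and 3.08 CPM after PBS and 13.9 and 17.3 CPM after ATO (log2 fold change 2.28, SE 0.38, adjusted p = 0.00746). Ckmt2, the mitochondrial creatine kinase of muscle, had 0 counts in both PBS grafts and 28 in the ATO grafts together, at least 4.60-fold higher. Synpo2, an actin-binding Z-disc protein of smooth and striated muscle, measured 2.03 and 0.670 CPM after PBS and 10.9 and 12.1 CPM after ATO (3.09, SE 0.53, adjusted p = 0.00815), and was the smooth muscle list gene that rose. Kdr, a vascular receptor of endothelium, rose (1.98, SE 0.45, adjusted p = 0.0184) while Cldn5, a tight junction gene of the same list, fell (-1.58, SE 0.46, adjusted p = 0.0418).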
